A study of Mus musculus with 6 samples.

Results

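Interferon-stimulated genes are the genes that a cell switches on after it senses an interferon, and 45 of them were followed here in non-parenchymal cells (the cells other than hepatocytes) of the mouse liver. The genes were chosen by symbol, and 44 of the 45 had a row among the 19349 rows of each count table, Mx2 being the one without. They were split into an Ifit/Oas/Isg15 type of 35 genes, 34 of them with a row, and a Gbp/Irg type of 10 genes. The libraries came from male C57BL/6J mice that were 8 weeks old at the start and received a high-fat diet for 24 weeks, which gives a model of nonalcoholic steatohepatitis (NASH). In the last 8 weeks the mice received either vehicle (DMSO) or ginkgetin, a plant biflavone, at 10 mg/kg/day by the intragastric route. Each group had 3 libraries, made with the 10x Genomics Chromium system, and libraries from mice on a chow diet were not analysed here, so every value belongs to a mouse on the high-fat diet.

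Type I interferons (interferon alpha and beta) bind the receptor IFNAR and act through a complex with STAT2 and IRF9 that binds the interferon-stimulated response element (ISRE) in promoters of genes such as Isg15, the Ifit genes and the Oas genes. Type II interferon (interferon gamma), a product of T and NK cells, binds IFNGR and acts through gamma-activated sites (GAS) in promoters, and the Gbp and Irg GTPases are known targets of it. The programmes overlap, and many of these genes answer to both kinds of interferon. In the liver, macrophages, plasmacytoid dendritic cells and endothelial cells are known to respond to interferons.

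The promoters of 5 genes are shown, 3 of the Ifit/Oas/Isg15 type and 2 of the Gbp/Irg type, so that the letters known to be bound after each kind of interferon can be read in both lists. Each is the 250 bases before the RefSeq start site (mouse build GRCm38.p6), read 5′ to 3′ on the strand of the gene, and capitals mark a match, on either strand, to 2 copies of GAAA with any 2 bases between them (the ISRE core) or to TTCNNNGAA (the GAS core, which reads the same on both strands). The windows are chr4:156200819-156201068 on the minus strand for Isg15, chr19:34640639-34640888 on the plus strand for Ifit1, chr7:141266425-141266674 on the minus strand for Irf7, chr3:142620413-142620662 on the plus strand for Gbp2 and chr11:58199306-58199555 on the plus strand for Igtp.
Isg15: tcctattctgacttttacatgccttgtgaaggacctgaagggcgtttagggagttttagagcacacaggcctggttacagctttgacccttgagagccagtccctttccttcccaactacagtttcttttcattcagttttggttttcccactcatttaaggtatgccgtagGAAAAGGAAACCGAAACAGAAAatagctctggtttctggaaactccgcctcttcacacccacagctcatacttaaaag
Ifit1: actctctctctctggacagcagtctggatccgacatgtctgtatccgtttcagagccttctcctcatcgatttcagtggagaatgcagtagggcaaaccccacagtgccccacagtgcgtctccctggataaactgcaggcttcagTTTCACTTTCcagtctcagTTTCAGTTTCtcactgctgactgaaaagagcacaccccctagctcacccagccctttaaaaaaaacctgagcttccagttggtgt
Irf7: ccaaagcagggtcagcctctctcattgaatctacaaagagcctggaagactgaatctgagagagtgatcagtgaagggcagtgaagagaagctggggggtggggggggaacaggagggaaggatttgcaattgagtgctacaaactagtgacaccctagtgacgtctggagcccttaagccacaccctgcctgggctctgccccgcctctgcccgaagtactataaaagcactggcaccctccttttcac
Gbp2: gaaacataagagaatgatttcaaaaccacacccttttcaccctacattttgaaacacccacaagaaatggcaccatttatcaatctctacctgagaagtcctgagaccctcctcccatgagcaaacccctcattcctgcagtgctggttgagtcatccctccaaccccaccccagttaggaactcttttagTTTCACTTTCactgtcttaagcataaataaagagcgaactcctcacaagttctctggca
Igtp: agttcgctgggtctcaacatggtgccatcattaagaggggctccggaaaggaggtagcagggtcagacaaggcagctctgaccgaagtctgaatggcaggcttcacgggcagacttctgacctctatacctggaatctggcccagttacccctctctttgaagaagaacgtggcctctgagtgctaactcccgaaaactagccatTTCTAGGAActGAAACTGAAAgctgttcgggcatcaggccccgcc

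Isg15 held 3 overlapping ISRE matches, of which the first began at -78 and the last ended at -57 from the start site. Ifit1 held 2 on the opposite strand, at -104 to -95 and -85 to -76. Gbp2 held 1 ISRE match at -59 to -50, and Igtp held an ISRE match at -34 to -25 with a GAS match beside it at -45 to -37. Irf7 held neither set of letters in this window, which says nothing of the factors that bind it. Of the 45 genes, 33 had a window, and 17 of these (51.5%) held an ISRE match, against 936 of all 27025 genes with a window (3.46%). By type, the ISRE letters were in 11 of 25 Ifit/Oas/Isg15 type windows and 6 of 8 Gbp/Irg type windows. The GAS letters were in 4 of 25 and 4 of 8, against 8.13% of all genes. A match is a description of letters and not a bound site.

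Cells were clustered without the interferon genes, and clusters were named from marker genes into 12 classes, with the ending "-like" because the names rest on markers alone. After filtering, 27544 of 33168 barcodes were kept, and 2317 cells stayed unnamed. Total counts per library ranged from 13128697 to 61796882 unique molecular identifiers (UMIs). Replicate 3 of both groups used another barcode set than replicates 1 and 2, and 3199 rows had counts in 1 barcode set only, none of them among the 44 genes. Slfn5, a Schlafen family gene, was nevertheless 5.89-fold higher in replicate 3 than in replicates 1 and 2 in macrophage-like cells and 6.89-fold higher in endothelial-like cells. Libraries of one barcode set shared at most 85 barcodes with each other. Nothing in the labels says how many mice a library holds, so the p-values measure the spread between libraries.

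The 44 genes were expressed most highly in different classes. Levels are CPM, the UMIs of a gene scaled to the same total of UMIs in every class and library, averaged over the libraries with 10 or more cells of the class, and they are compared here for one gene across classes and not between genes. Endothelial-like cells had the highest mean level of 11 genes, stellate-like cells of 10, macrophage-like cells of 9, plasmacytoid dendritic-like cells of 8, monocyte-like cells of 3, NK cell-like cells of 2 and T cell-like cells of 1. For all but 1 gene the libraries of the highest class overlapped with those of the next class, so the order of neighbouring classes was within the spread between libraries.

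The exception was Bst2, which codes for tetherin, a membrane protein that holds budding viruses on the cell and marks plasmacytoid dendritic cells in the mouse. Bst2 stood at 3962, 3613 and 3603 CPM in the vehicle libraries and at 3540, 3574 and 3365 CPM in the ginkgetin libraries of plasmacytoid dendritic-like cells. No library of another class was above 1569 CPM, and endothelial-like cells were next at a mean of 1161 CPM. B cell-like cells were lowest at 79.1 CPM. The other members highest in plasmacytoid dendritic-like cells were Irf9 and Stat2, which code for subunits of the ISRE-binding complex, Usp18, a protease that removes ISG15 from proteins, Mx1, an antiviral GTPase, Irf1, a transcription factor, Trim30a and Ifi35.

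Macrophage-like cells were highest for Irf7, the transcription factor that amplifies type I interferon production, at a mean of 310 CPM against 182 CPM in plasmacytoid dendritic-like cells. They were also highest for Oas1a, Oas2 and Oas3, enzymes that make the second messenger for RNase L, and for Oasl1, Ifi204, a DNA sensor, Dhx58, a helicase of the RIG-I family, Rtp4 and Gbp3. Monocyte-like cells were highest for Ifitm3, which blocks viral fusion, at 3926 CPM, with stellate-like cells next at 3323 CPM and NK cell-like cells lowest at 45.6 CPM. They also led for Ifi27l2a at 2109 CPM, and for Zbp1, a sensor of Z-form nucleic acid, at 143 CPM.

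Stellate-like cells were highest for Isg15, a ubiquitin-like protein that is attached to other proteins, at 232 CPM, and for Ifit1, Ifit3, Ifit3b, Oasl2, Ifih1, Xaf1, Gbp2, Gbp5 and Igtp. Endothelial-like cells were highest for Ifit2, Rsad2 (viperin), Ifi44, Ddx58 (RIG-I), Cmpk2, Parp14, Slfn5, Eif2ak2 (the kinase PKR), Gbp4, Irgm1 and Iigp1. Iigp1, an Irg GTPase that attacks the vacuoles of intracellular parasites, stood at 245 CPM in endothelial-like cells, 191 CPM in stellate-like cells and 2.45 CPM in plasma cell-like cells. Lymphoid classes led only for Herc6 and Gbp7, which were highest in NK cell-like cells, and for Ifi47, which was highest in T cell-like cells. Ifit3 and Ifit3b, and Oas1a and Oas1g, are close copies, so the split of their counts is uncertain.

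**Figure D1:**
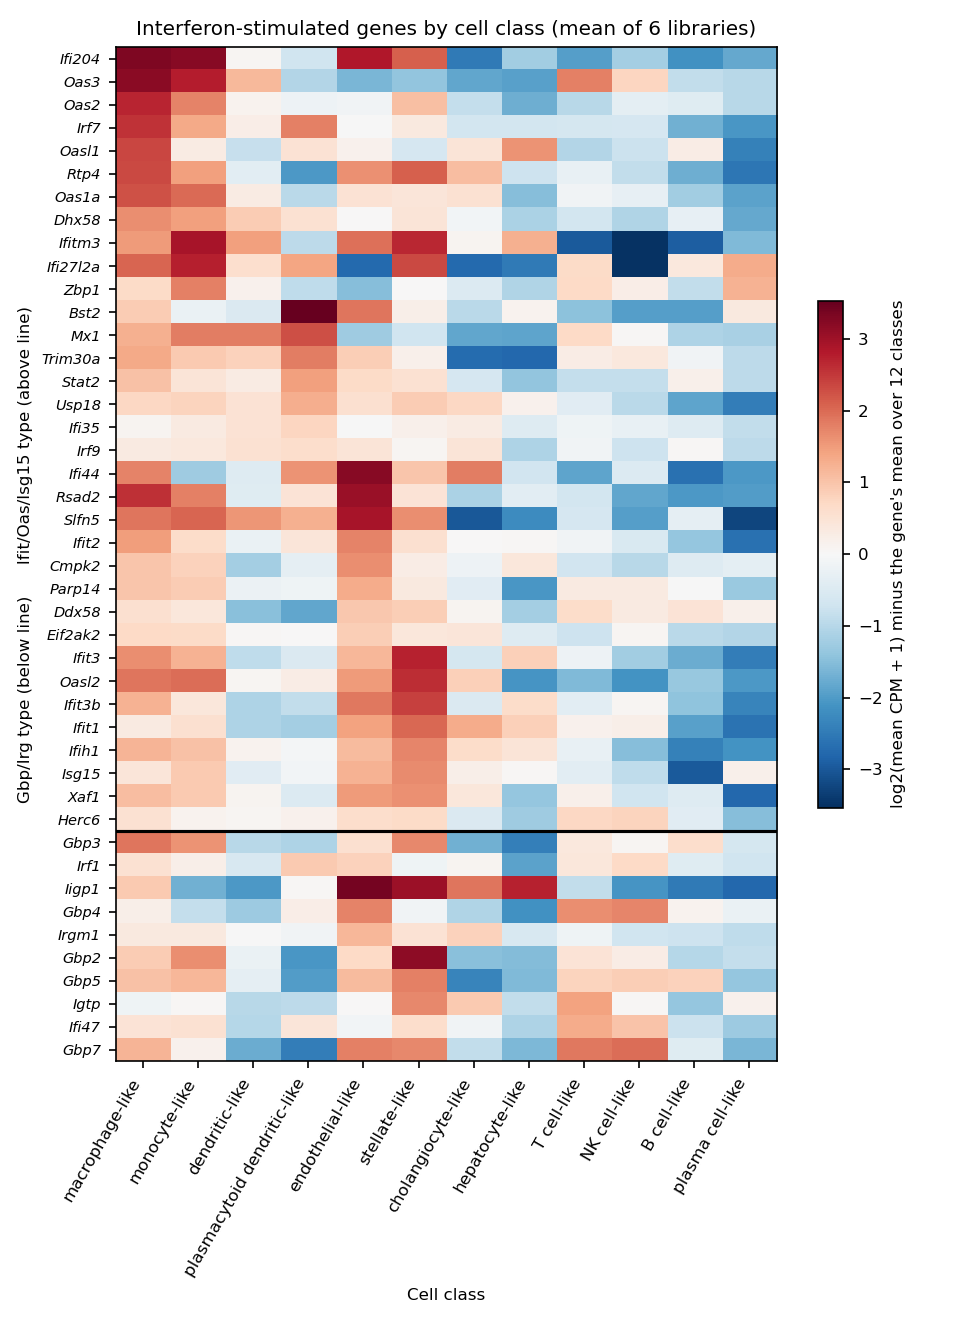
Levels of the 44 interferon-stimulated genes with a row (rows) in 12 cell classes (columns), as log2(mean CPM + 1) over the libraries minus the mean of the gene over the classes. Bst2 stands out in plasmacytoid dendritic-like cells, the Oas genes and Irf7 are darkest in macrophage-like cells, and Iigp1, Ifi44 and Rsad2 in endothelial-like cells.

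Group comparisons ask whether these genes differed between ginkgetin-treated and vehicle-treated mice within a class. Counts of a class were added up within each library and compared with edgeR's quasi-likelihood test over all genes of the class, and calls needed a fold change over 2 and p under 0.05 after Benjamini-Hochberg adjustment. The values per library in the following paragraphs are CPM on the scale of edgeR's TMM factors, and log2 fold changes are ginkgetin against vehicle.

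In macrophage-like cells, 4 genes of the Ifit/Oas/Isg15 type were lower and 2 of the Gbp/Irg type were higher in the ginkgetin group. Isg15, Ifit3, Oas1a and Ifi35 fell and Gbp4 and Gbp7 rose, so 6 of the 44 genes were called, against 10.6% of the 10148 genes tested. That share is close to the background, and the class as a whole differed widely between the groups. The 34 Ifit/Oas/Isg15 type genes had a median log2 fold change of -0.44 with 28 below 0, and the 10 Gbp/Irg type genes had a median of 0.32 with 4 below 0, beside a median of 0.02 and 49.1% below 0 over all genes tested.

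Isg15 stood at 152, 200 and 143 CPM in the vehicle libraries and at 32.1, 64.5 and 46.2 CPM in the ginkgetin libraries. The groups did not overlap, and the log2 fold change was -1.77 (SE 0.28, adjusted p = 0.016, edgeR). Ifit3, whose protein belongs to a family that binds viral RNA, stood at 72.5, 77.3 and 68.9 CPM with vehicle and at 37.9, 23.2 and 26.1 CPM with ginkgetin. The highest ginkgetin library was well below the lowest vehicle library, with a log2 fold change of -1.38 (SE 0.21, adjusted p = 0.015, edgeR).

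Oas1a stood at 56.9, 58.0 and 70.0 CPM with vehicle and at 35.0, 20.6 and 19.0 CPM with ginkgetin. Its log2 fold change was -1.40 (SE 0.26, adjusted p = 0.021, edgeR). Ifi35, which codes for an interferon-induced leucine zipper protein, showed the tightest ginkgetin values of the 6 called genes, at 40.8, 41.3 and 37.9 CPM, against 96.4, 83.5 and 72.1 CPM with vehicle. Its log2 fold change of -1.08 (SE 0.18, adjusted p = 0.017, edgeR) was only just past the fold limit.

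Gbp4 and Gbp7 code for guanylate-binding proteins, large GTPases of cell-autonomous defence, and moved the other way. Gbp4 stood at 12.2, 6.99 and 6.36 CPM with vehicle and at 35.0, 29.7 and 45.5 CPM with ginkgetin, a log2 fold change of 2.13 (SE 0.33, adjusted p = 0.015, edgeR). Gbp7 stood at 32.9, 25.4 and 28.2 CPM with vehicle and at 90.4, 64.5 and 72.7 CPM with ginkgetin, a log2 fold change of 1.38 (SE 0.20, adjusted p = 0.013, edgeR). In both genes every ginkgetin library lay above every vehicle library.

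**Figure D2:**
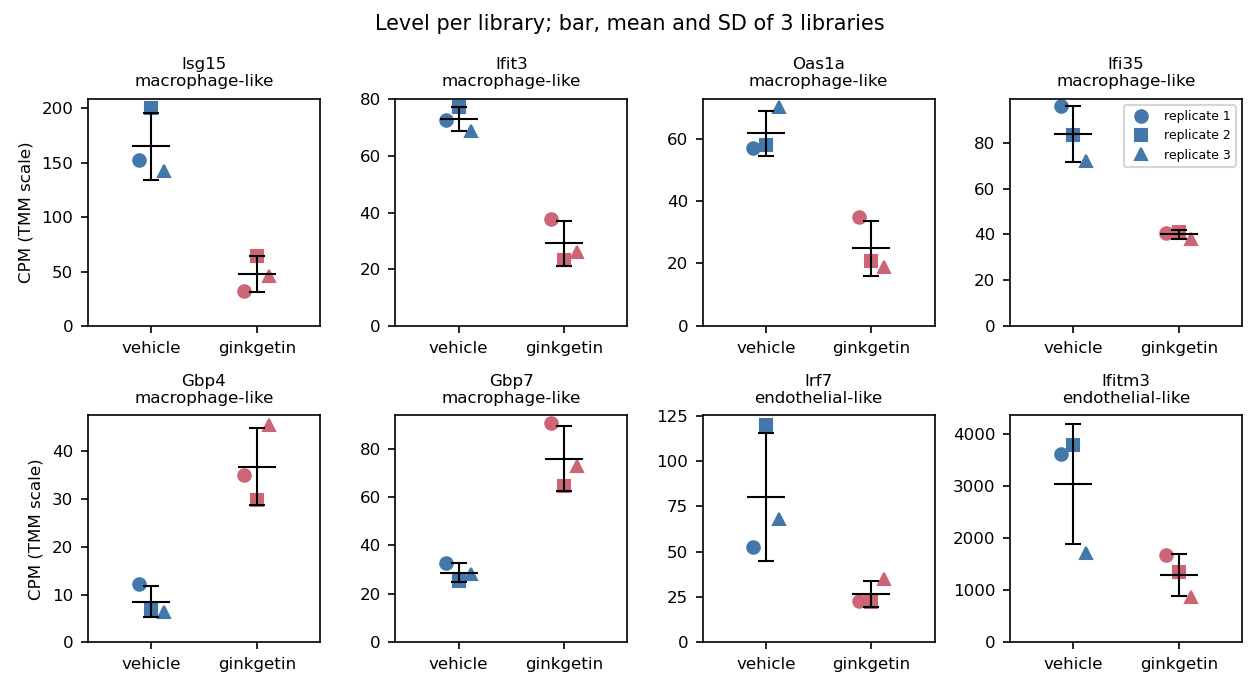
CPM on the TMM scale per library for the 6 genes called in macrophage-like cells and for Irf7 and Ifitm3 in endothelial-like cells; marker shapes give the replicate number and bars the mean and SD of 3 libraries. In macrophage-like cells Isg15, Ifit3, Oas1a and Ifi35 are lower and Gbp4 and Gbp7 higher in every ginkgetin library than in any vehicle library.

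The remaining 38 genes were not called in macrophage-like cells, and their log2 fold changes ran from -1.24 for Ifi44 to 0.79 for Gbp5. Bst2 came closest to the limits, at 825, 915 and 686 CPM with vehicle and 429, 410 and 398 CPM with ginkgetin, with a log2 fold change of -0.97 (SE 0.21, adjusted p = 0.028, edgeR) that did not reach a 2-fold change. Irf7 stood at 383, 454 and 271 CPM with vehicle and 347, 192 and 267 CPM with ginkgetin. The groups overlapped for Irf7, and its log2 fold change of -0.46 (SE 0.30, adjusted p = 0.33, edgeR) was within the spread between libraries. Irf7 was lower with ginkgetin in each pair of the same replicate number, though nearly equal in replicate 3. With the replicate number as a block its log2 fold change was -0.46 (adjusted p = 0.19, edgeR), so it was not called either.

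Within the Gbp/Irg type, Gbp2 stood at 88.6, 51.9 and 51.6 CPM with vehicle and 67.1, 28.4 and 32.6 CPM with ginkgetin, with a log2 fold change of -0.67 (SE 0.38, adjusted p = 0.27, edgeR). Igtp, an Irg GTPase of the same defence system, stood at 36.9, 25.8 and 21.9 CPM with vehicle and 29.2, 14.2 and 16.5 CPM with ginkgetin, with a log2 fold change of -0.60 (SE 0.34, adjusted p = 0.27, edgeR). The groups overlapped for both, and with one library left out Gbp2 ran from -1.10 (without ginkgetin replicate 1) to -0.33 (without vehicle replicate 1) and Igtp from -0.90 to -0.31 on the log2 scale, without the same libraries. Irf1 stood at 77.5, 61.0 and 103 CPM with vehicle and 90.4, 101 and 147 CPM with ginkgetin, and Gbp3 at 88.9, 62.9 and 54.6 CPM and 105, 49.0 and 82.0 CPM. Ifi47 stood at 87.4, 58.3 and 47.6 CPM with vehicle and 70.0, 47.7 and 65.5 CPM with ginkgetin. The groups overlapped for Irf1, Gbp3 and Ifi47. Within pairs of the same replicate number Gbp2 and Igtp were lower and Irf1 higher with ginkgetin in 3 of 3 pairs. Pairing by number is not shown for replicates 1 and 2. With the replicate block Gbp2 had a log2 fold change of -0.65 (adjusted p = 0.029, edgeR), under the 2-fold limit, Igtp of -0.51 (adjusted p = 0.13, edgeR) and Irf1 of 0.50 (adjusted p = 0.059, edgeR).

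The abundant members Ifitm3 and Ifi27l2a overlapped as well. Ifitm3 stood at 2449, 2385 and 1270 CPM with vehicle and 1464, 1159 and 673 CPM with ginkgetin, and Ifi27l2a at 1941, 2053 and 1214 CPM and 1487, 1061 and 607 CPM. In both, the replicate 3 library was the lowest of its group, and ginkgetin was lower in 3 of 3 pairs. With the block the log2 fold changes were -0.90 for Ifitm3 (adjusted p = 0.0091, edgeR) and -0.78 for Ifi27l2a (adjusted p = 0.023, edgeR), both under the 2-fold limit.

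The calls in macrophage-like cells depended on single libraries and on the scaling. With ginkgetin replicate 2, vehicle replicate 1 or vehicle replicate 2 left out, edgeR called none of the 44 genes and no other gene, and 10 or 11 of the 44 (22.7 to 25%) had an unadjusted p under 0.05, against 20.1 to 25.7% of all genes. Without ginkgetin replicate 3 the count was 1 (2.51% of all genes), without ginkgetin replicate 1 it was 6 (6.15%), and without vehicle replicate 3 it was 10 (12.2%). The 6 log2 fold changes kept their sign in each of these fits, with Isg15 between -2.06 and -1.60 and Gbp4 between 1.87 and 2.48. With library totals in place of TMM factors the median log2 fold change of all genes moved from 0.02 to 0.51, 1543 of 1706 called genes were higher against 550 of 1076 with TMM, and Isg15, Gbp4 and Gbp7 were the 3 members called, against 16.8% of all genes. With those totals only 16 of the 44 genes were below 0, against 32 with TMM, so a direction for the list holds relative to the other genes of these cells. With the replicate number as a block, 7 of the 44 genes were called (all 6 and Ifi44, at a log2 fold change of -1.17), against 16% of all genes.

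The macrophage-like cells of the groups lay in different clusters. Vehicle cells, pooled over libraries, were 32.4% in cluster 7, led by Ms4a7, Pf4 and Trem2, and 32.1% in cluster 8, led by Fabp7, Folr2 and Wfdc17. They were 22.6% in cluster 12 (Cxcl2, Cd300c2) and 11.9% in cluster 29 (Mmp12, Clec4f). Clusters 7 and 8 made up 50.3 and 48.9% of vehicle replicate 1 and 48.1 and 48.2% of replicate 2. Vehicle replicate 3, of the other barcode set, lay 62.1% in cluster 12 and 32.7% in cluster 29. Trem2 and Ms4a7 were among the leading genes of clusters 7 and 12, and Mmp12 and Clec4f among those of clusters 8 and 29. Whether these pairs of clusters hold the same cells was not tested. Ginkgetin cells were 87.6% in cluster 11, led by Marco, C6 and Cd163. Median depth differed too, at 7532 to 16314 UMIs per macrophage-like cell in the vehicle libraries and 2067 to 2363 in the ginkgetin libraries. The summed level of 8 endothelial-like markers in these cells was 193 to 212 CPM with vehicle and 901 to 1677 CPM with ginkgetin, with none of the 8 at 0. The 8 T cell-like markers summed to 4.22 to 11.7 and 41.2 to 75.6 CPM and the 7 B cell-like markers to 39.3 to 41.2 and 41.6 to 179 CPM, while that of the 10 macrophage-like markers was 23595 to 25784 and 20884 to 27424 CPM. The part of these differences in the 6 calls was not tested.

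Clusters 7 and 12 held at least 30 cells in libraries of both groups. In cluster 7, on the scale of library totals, Isg15 stood at 134 and 157 CPM in vehicle replicates 1 and 2 and at 153 CPM in ginkgetin replicate 2 (31 UMIs in 43 cells, exact 95% Poisson interval 104 to 217 CPM, which covers counting error only). Both vehicle values for Isg15 lay within that interval. In cluster 12 Isg15 stood at 140 CPM in vehicle replicate 3 and at 56.1 CPM in ginkgetin replicate 3 (18 UMIs in 34 cells, interval 33.3 to 88.7 CPM). Ifit3 stood at 59.0 and 49.9 CPM against 34.4 CPM in cluster 7, with an interval of 13.8 to 71.0 CPM for the last, and at 61.9 against 24.9 CPM in cluster 12, with an interval of 10.8 to 49.1 CPM. Oas1a stood at 45.4 and 43.8 CPM against 34.4 CPM in cluster 7 and at 62.6 against 62.4 CPM in cluster 12. Ifi35 stood at 65.4 and 62.5 CPM against 88.6 CPM in cluster 7, with an interval of 52.5 to 140.0 CPM, and at 62.6 against 43.6 CPM in cluster 12, with an interval of 23.9 to 73.2 CPM. In these clusters neither gene showed in both places the lower ginkgetin level found over the whole class. Gbp4 stood at 8.56 and 5.15 CPM against 24.6 CPM in cluster 7 (5 UMIs, interval 7.99 to 57.4 CPM) and at 4.63 against 15.6 CPM in cluster 12 (5 UMIs, interval 5.06 to 36.4 CPM). Gbp7 stood at 15.8 and 13.2 CPM against 34.4 CPM in cluster 7 (7 UMIs, interval 13.8 to 71.0 CPM) and at 16.0 against 15.6 CPM in cluster 12. With 1 or 2 libraries on a side these comparisons have no replicate test.

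In cluster 11 the ginkgetin libraries had 30.5, 38.3 and 63.2 CPM of Isg15, 39.2, 40.6 and 68.9 CPM of Gbp4 and 100, 87.9 and 114 CPM of Gbp7, but no vehicle library reached 30 cells there. Group and cluster cannot be told apart for most of the macrophage-like cells.

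**Figure D3:**
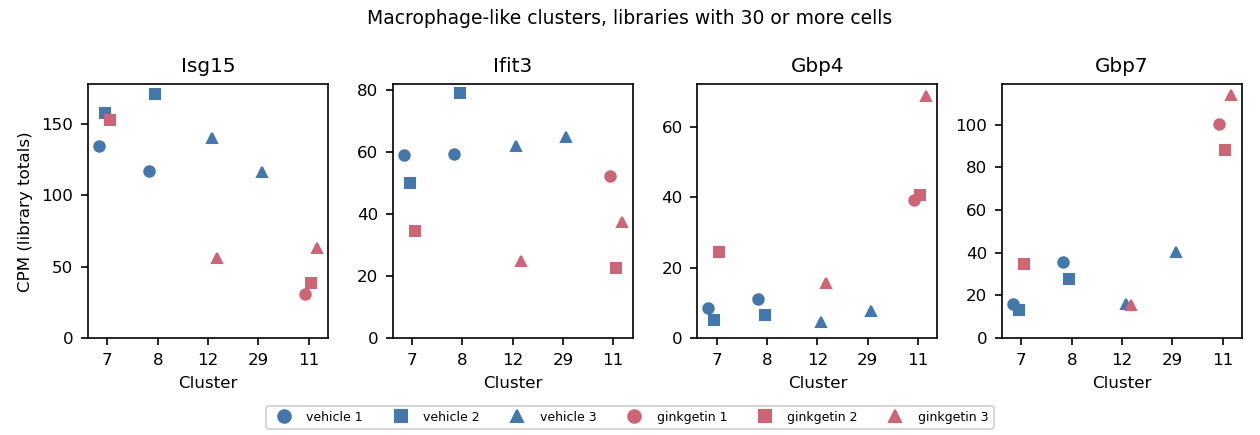
CPM on library totals of Isg15, Ifit3, Gbp4 and Gbp7 in the 5 macrophage-like clusters, 1 point per library with 30 or more cells; colours give the group and shapes the replicate number. Cluster 11 holds the 3 ginkgetin libraries and no vehicle library, and in cluster 7 ginkgetin replicate 2 (153 CPM) lies beside the vehicle libraries for Isg15.

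In endothelial-like cells none of these genes was called with the group as the only term, and the Ifit/Oas/Isg15 type lay below 0 throughout. Of the 42 genes tested 0 were called by edgeR (background 0.433%), 16 (38.1%) had an unadjusted p under 0.05 against 13.9% of all genes, and DESeq2 called 6 (Irf7, Zbp1, Ifit1, Xaf1, Oas2 and Ifitm3, all lower), against 2.85% of all genes by DESeq2. All 32 Ifit/Oas/Isg15 type genes tested had a log2 fold change below 0, with a median of -0.61. The 10 Gbp/Irg type genes had a median of -0.28 with 8 below 0, and the median of all genes was -0.0054 with 50.6% below 0. With library totals the median of all genes moved to 0.15 and 36 of the 42 genes were below 0. The endothelial-like class held different clusters in replicate 3 than in replicates 1 and 2. Vehicle replicate 3 had 374 of its 398 cells in cluster 20 and 18 in cluster 4, and ginkgetin replicate 3 had 926 of 1128 in cluster 9, which held no cell of replicates 1 and 2. Cluster 10, which has Adgrg6, Vwf, Ednrb and Fbln2 among its leading genes in common with cluster 20, was mostly of replicates 1 and 2 and stayed unnamed.

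With the replicate number as a block 9 of the 42 genes were called, all of the Ifit/Oas/Isg15 type and all lower, against 4.4% of all genes. They were Irf7, Ifitm3, Ifi27l2a, Ifi44, Ifit1, Ifit3, Zbp1, Xaf1 and Oas2. With the barcode set as the block 9 genes were called as well, against 4.57% of all genes, with Isg15 in place of Ifit3. With replicates 1 and 2 alone 8 were called, against 3.51% of all genes, and these were Irf7, Ifitm3, Ifi27l2a, Ifi44, Zbp1, Xaf1, Oas2 and Rtp4, all lower. Without any 1 library, with no block, the count stayed at 0. The 16 genes with an unadjusted edgeR p under 0.05 became 6 (14.3%) without vehicle replicate 2, against 10.4% of all genes. They were also 6 (14.3%) without ginkgetin replicate 2, against 8.93%. Without any other library they were 11 to 15 (26.2 to 35.7%), against 8.95 to 19.4% of all genes.

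Irf7 stood at 52.7, 120 and 68.0 CPM with vehicle and 22.6, 22.2 and 34.7 CPM with ginkgetin in these cells. Every ginkgetin library was below every vehicle library, and the log2 fold change was -1.58 (SE 0.36, adjusted p = 0.13, edgeR) without the block and -1.53 (SE 0.27, adjusted p = 0.011, edgeR) with it. Ifitm3 stood at 3605, 3784 and 1715 CPM with vehicle and 1665, 1347 and 869 CPM with ginkgetin. Replicate 3 was lowest in both groups, and the log2 fold change was -1.23 (SE 0.42, adjusted p = 0.27, edgeR) without the block and -1.20 (SE 0.13, adjusted p = 0.0026, edgeR) with it.

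Ifit3 stood at 28.3, 57.3 and 54.2 CPM with vehicle and 21.8, 19.4 and 27.0 CPM with ginkgetin, with log2 fold changes of -1.03 (adjusted p = 0.22, edgeR) without the block and -1.004 (adjusted p = 0.024, edgeR) with it. Isg15 stood at 139, 441 and 190 CPM with vehicle and 146, 87.8 and 76.4 CPM with ginkgetin. The groups overlapped, vehicle replicate 2 was far above the rest, and Isg15 was not called without the block (log2 fold change -1.31, SE 0.49, adjusted p = 0.31, edgeR) or with it (adjusted p = 0.080, edgeR), and it was called with the barcode set as the block (adjusted p = 0.042, edgeR). Without vehicle replicate 2 its log2 fold change was -0.67. Bst2 stood at 1460, 1853 and 929 CPM and at 1279, 905 and 822 CPM, with a log2 fold change of -0.50 (SE 0.33, adjusted p = 0.60, edgeR).

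Of the other genes called with the block, Ifit1 stood at 39.9, 73.7 and 61.5 CPM with vehicle and 26.0, 12.3 and 27.3 CPM with ginkgetin. Zbp1 stood at 19.2, 30.01 and 14.6 CPM and at 6.39, 7.18 and 9.08 CPM. Xaf1, which codes for a factor linked to cell death, stood at 93.1, 125 and 94.5 CPM and at 53.8, 35.8 and 64.3 CPM. Ifit1, Zbp1 and Xaf1 were each lower in all 3 ginkgetin libraries than in any vehicle library. Ifi44 stood at 78.4, 135 and 136 CPM and at 47.8, 31.0 and 74.7 CPM. Oas2 was sparse in these cells, at 6.03, 10.9 and 5.69 CPM and at 0, 0.813 and 2.37 CPM. Ifi27l2a stood at 83.6, 125 and 23.6 CPM with vehicle and 22.6, 43.1 and 5.30 CPM with ginkgetin, and its groups overlapped without the pairing.

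None of the 10 Gbp/Irg type genes was called in endothelial-like cells, with or without the block. Gbp2 stood at 40.3, 67.3 and 49.3 CPM with vehicle and 36.9, 34.0 and 45.9 CPM with ginkgetin (log2 fold change -0.41, SE 0.23, adjusted p = 0.52, edgeR). Igtp stood at 23.0, 29.1 and 30.6 CPM and at 31.6, 15.04 and 26.7 CPM (log2 fold change -0.18, SE 0.30, adjusted p = 0.88, edgeR). Both genes overlapped between the groups. Iigp1 stood at 160, 267 and 423 CPM and at 217, 152 and 230 CPM. Irf1 stood at 70.1, 87.3 and 194 CPM and at 113, 108 and 148 CPM, and Irgm1 at 106, 119 and 103 CPM and 102, 65.7 and 91.6 CPM. Slfn5, with its high replicate 3 libraries, stood at 53.1, 96.4 and 498 CPM with vehicle and 59.4, 45.1 and 377 CPM with ginkgetin.

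Pooled over libraries, cells of the groups also lay apart, with 78.0% of vehicle cells in cluster 4 (Fabp4, Lyve1) and 19.9% in cluster 20 (Cavin2, Cebpd), and 54.5% of ginkgetin cells in cluster 0 (Ehd3, Sepp1), 24.04% in cluster 5 (Wnt2, Kit) and 17.8% in cluster 9 (Selenop, Cavin2). Cluster 20 held 374 cells of vehicle replicate 3 and 172 of ginkgetin replicate 3, on library totals, and there Irf7 stood at 76.0 and 52.1 CPM, Ifit3 at 61.0 and 35.4 CPM, Xaf1 at 106 and 66.2 CPM and Ifitm3 at 1906 and 1357 CPM. Isg15 stood at 213 and 168 CPM and Gbp4 at 80.0 and 237 CPM in the same cells. The summed level of the 10 macrophage-like markers in endothelial-like cells was 209 to 414 CPM with vehicle and 61.6 to 175 CPM with ginkgetin. None of these markers was at 0 in every library. The 8 endothelial-like markers summed to 8247 to 11503 CPM with vehicle and 13487 to 17428 CPM with ginkgetin. The part of both sums in the levels of these genes was not tested.

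**Figure D4:**
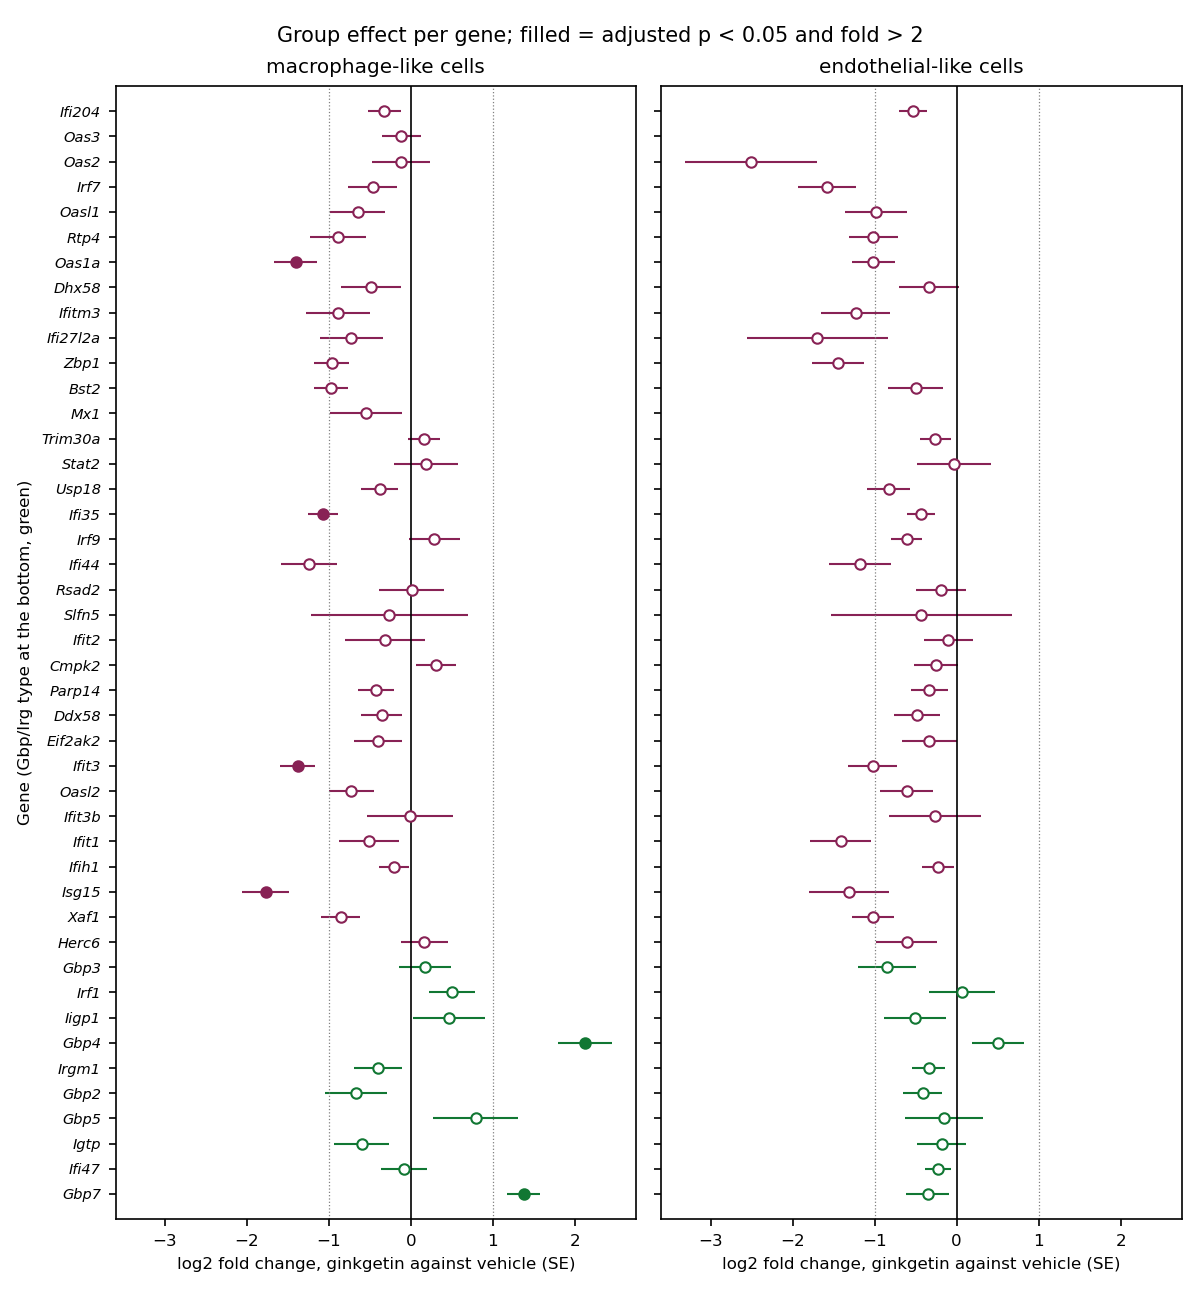
Log2 fold change of each gene, ginkgetin against vehicle, with its standard error from edgeR with the group as the only term, in macrophage-like (left) and endothelial-like cells (right). Filled points are called, 6 in macrophage-like and 0 in endothelial-like cells, dotted lines mark a 2-fold change, and the Ifit/Oas/Isg15 type lies below 0 for all 32 genes tested in endothelial-like cells.

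The group effect itself was compared between macrophage-like and endothelial-like cells in an edgeR fit over both classes with a term for each library. Of the 42 genes in that fit 4 differed between the classes, against 8.93% of all genes. That share is about the background. The effect was higher in macrophage-like cells for Gbp7, Gbp4, Oas2 and Irf7, and Gbp7, which rose there, stood in endothelial-like cells at 72.0, 92.8 and 121 CPM with vehicle and 85.0, 55.9 and 83.4 CPM with ginkgetin. For Isg15 the difference in effect was -0.44 (SE 0.38, adjusted p = 0.48, edgeR) and for Ifit3 -0.49 (SE 0.32, adjusted p = 0.35, edgeR), so a difference between the classes was not shown for them.

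In the other 10 classes no member was called with the group as the only term. The background was 0.176% in cholangiocyte-like cells and 0% in the other 9 classes, 31 of the 256 tests of a member in a class (12.1%) had an unadjusted edgeR p under 0.05, the same share as over all genes of those classes (12.1%), and DESeq2 called 3 members, all in dendritic-like cells, where it called 1.58% of all genes. The log2 fold change was below 0 in 187 of the 256 tests. By class, the median of the Ifit/Oas/Isg15 type was -0.85 in hepatocyte-like cells (8 genes tested), -0.50 in dendritic-like, -0.38 in stellate-like, -0.18 in monocyte-like and 0.04 in plasma cell-like cells, and it lay between -0.35 and -0.24 in the other classes, beside medians between -0.02 and 0.02 over all genes in the 12 classes. The Gbp/Irg type lay above 0 in some of them, with medians of 0.28 in monocyte-like and 0.32 in cholangiocyte-like cells, and below 0 in others, with -0.48 in B cell-like cells. The hepatocyte-like medians rest on 12 and 177 cells of ginkgetin replicates 2 and 3. Without Ifitm3, Bst2 and Ifi27l2a the Ifit/Oas/Isg15 type there summed to 357, 388 and 392 CPM with vehicle on library totals. With ginkgetin it summed to 243 and 933 CPM, so no direction is read from that class.

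**Figure D5:**
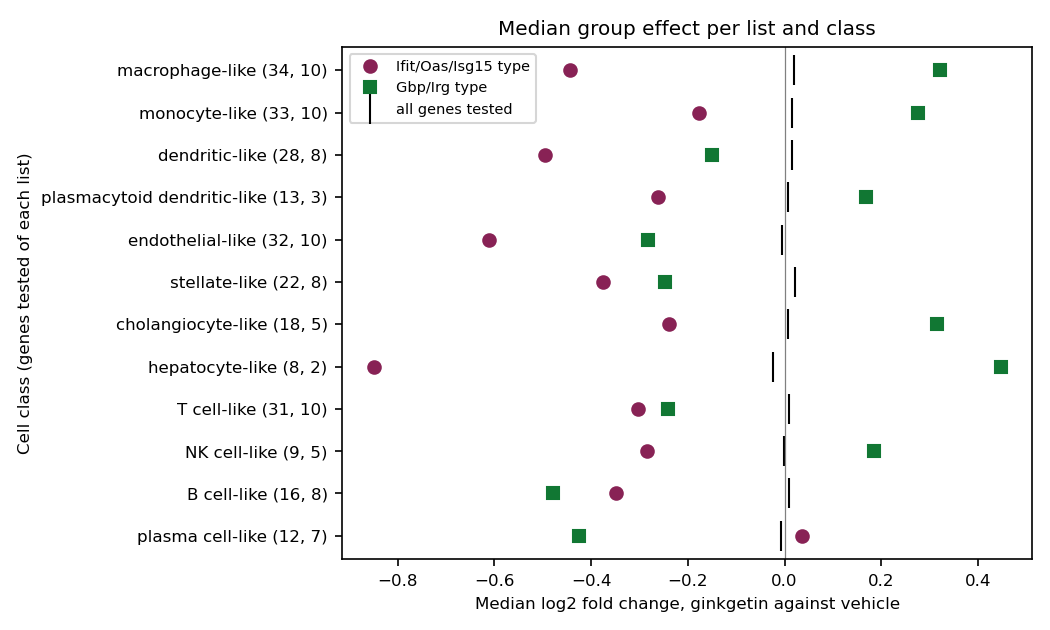
Median log2 fold change (ginkgetin against vehicle, group as the only term) of the 2 lists and of all genes tested, by class, with the numbers of genes tested of each list beside the class name. The Ifit/Oas/Isg15 type lies below 0 in 11 classes and at 0.04 in plasma cell-like cells, whereas the Gbp/Irg type lies on both sides of 0.

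With the replicate number as a block, 7 calls were made in 3 of these classes. In dendritic-like cells (background 3.77%) Ifitm3, Ifi27l2a and Rtp4, a chaperone of receptor transport, fell. Ifitm3 stood there at 2216, 1855 and 1828 CPM with vehicle and 996, 1052 and 717 CPM with ginkgetin, and the groups did not overlap (log2 fold change -1.11, SE 0.23, adjusted p = 0.029 with the block and 0.14 without, edgeR). The make-up of the dendritic-like class differed between the groups, with cluster 26, led by Xcr1, Naaa and Cst3, at 25.9, 35.2 and 29.03% of its cells with vehicle and 52.04, 47.6 and 46.5% with ginkgetin, and cluster 13, led by Cd209a and Clec10a, the rest. In these cells the summed macrophage-like markers were 439 to 584 CPM with vehicle and 159 to 319 CPM with ginkgetin, and the endothelial-like markers 88.4 to 123 and 205 to 893 CPM. The part of the make-up and of these markers in the calls was not tested. Rtp4 stood at 58.2, 39.7 and 35.1 CPM and at 28.2, 17.9 and 10.2 CPM, and Ifi27l2a at 780, 701 and 484 CPM and at 365, 369 and 219 CPM.

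In monocyte-like cells (background 3.2%) Oas1a and Rtp4 fell and Ifit2 rose. Oas1a stood at 45.1, 36.5 and 57.9 CPM with vehicle and 23.7, 19.1 and 23.95 CPM with ginkgetin. Ifit2 stood at 12.7, 10.9 and 14.7 CPM and at 21.9, 27.6 and 30.3 CPM, so 2 genes of the same type moved in opposite directions in 1 class. Rtp4 stood at 201, 154 and 98.5 CPM and at 129, 61.5 and 45.8 CPM, and overlapped. The class holds cluster 31, led by Ace, Eno3 and Cd300e, which in replicates 1 and 2 was 8.91 and 9.15% of its cells with vehicle and 22.7 and 20.8% with ginkgetin, and which had 0 cells in replicate 3. The summed endothelial-like markers in monocyte-like cells were 39.6 to 74.0 CPM with vehicle and 130 to 827 CPM with ginkgetin, and the macrophage-like markers 2404 to 2859 and 1857 to 2238 CPM. The part of these differences in the calls was not tested either. In stellate-like cells (background 0.53%) Irf7 fell, from 110, 140 and 110 CPM to 32.4, 22.9 and 26.7 CPM, with a log2 fold change of -2.16 (SE 0.34, adjusted p = 0.035 with the block and 0.48 without, edgeR). These libraries held only 24 to 73 stellate-like cells each, and the class was mixed. Of its 286 cells, 105 lay in cluster 35, led by Gsn, Igfbp6 and Dpt, with fewer of the stellate markers than cluster 33 (5 against 8). Cluster 35 made up 76.9, 41.5 and 28.3% of the class with vehicle and 50, 10.96 and 47.8% with ginkgetin, and its part in the Irf7 values was not tested.

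Single cells were compared by the share with at least 1 UMI of 31 Ifit/Oas/Isg15 type genes, leaving out the abundant Ifitm3, Bst2 and Ifi27l2a, after each cell was thinned to 1000 UMIs. In macrophage-like cells the share was 80.3, 79.6 and 80.9% in the vehicle libraries and 85.4, 78.4 and 88.8% in the ginkgetin libraries (two-sided exact permutation test, p = 0.4, n = 3 against 3). Thinning left out 2 vehicle and 58 ginkgetin cells, which were shallower. Unthinned, the shares were 99.4% ± 0.47 (SD, n = 3) with vehicle and 94.8% ± 2.18 (SD, n = 3) with ginkgetin, at the unequal depths given before, so no direction is read from them.

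In endothelial-like cells the thinned share was 69.0, 81.0 and 87.8% with vehicle and 64.9, 59.9 and 82.5% with ginkgetin (two-sided exact permutation test, p = 0.3, n = 3 against 3). Cells with 3 or more UMIs of the list made up 21.7, 36.0 and 48.7% and 16.2, 11.3 and 35.1% (exact permutation test, p = 0.2). Unthinned, 96.0% ± 2.52 and 91.2% ± 6.95 (SD, n = 3) had at least 1 UMI. The smallest p that 3 libraries against 3 allow is 0.1. No class is known to lack all these genes, and the thinned share was lowest in plasma cell-like cells, at 29.6% ± 10.9 with vehicle, and B cell-like cells, at 34.3% ± 8.08 (SD, n = 3), at median depths of 6842 to 26275 and 2272 to 3420 UMIs. The part of free RNA in these shares was not tested. For the Gbp/Irg type the thinned share in macrophage-like cells was 29.9, 24.5 and 27.3% with vehicle and 50.5, 40 and 54.5% with ginkgetin (exact permutation test, p = 0.1). Every ginkgetin library lay above every vehicle library, whereas the unthinned share was lower with ginkgetin, at 73.9% against 85.1%, so no order is read from it. In NK cell-like cells the thinned Gbp/Irg type share went the other way, at 36.4, 35.2 and 71.4% with vehicle (the last from 14 cells) and 24.1, 32.7 and 29.3% with ginkgetin (exact permutation test, p = 0.1). In monocyte-like cells the thinned Ifit/Oas/Isg15 type share was 73.8, 73.4 and 73.9% with vehicle and 67.2, 51.9 and 70.8% with ginkgetin. It was lower in every ginkgetin library (exact permutation test, p = 0.1). Only the Ifit/Oas/Isg15 type shares of macrophage-like and endothelial-like cells were planned. The other group comparisons of shares are printed because they reached p = 0.1 (exact permutation test), out of both lists in each class compared. Among that many comparisons some would reach this p without any group effect, so no group effect is read from them.

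A pair of fixed lists gave the other genes of the pathway. Of 36 interferon ligands, receptors and signalling genes, 31 had a row and 27 were tested in macrophage-like cells, where Tlr3, a receptor for double-stranded RNA, rose. Tlr3 stood at 10.7, 9.32 and 10.9 CPM with vehicle and 26.2, 23.2 and 20.4 CPM with ginkgetin on the TMM scale (log2 fold change 1.14, SE 0.22, adjusted p = 0.024, edgeR). None of the 24 tested in endothelial-like cells was called with or without the block. Of 53 other interferon-stimulated genes, 38 were tested in macrophage-like cells, where Gbp2b and Ifitm1 rose and Oas1g and Phf11d fell, a share of the list close to the 10.6% called over all genes of the class. Gbp2b, another guanylate-binding protein, stood at 52.9, 36.9 and 25.2 CPM and at 204, 110 and 152 CPM (log2 fold change 2.01, SE 0.35, adjusted p = 0.018, edgeR). Phf11d stood at 58.7, 55.1 and 44.7 CPM and at 20.4, 21.9 and 23.98 CPM (log2 fold change -1.23, SE 0.19, adjusted p = 0.015, edgeR). Among the 34 of that list tested in endothelial-like cells none was called without the block, and Phf11d was lower with it, at a log2 fold change of -1.03 (SE 0.14, adjusted p = 0.0054, edgeR). With the block Tlr3 also rose in dendritic-like cells, whose share of the Xcr1 cluster 26 was higher in every ginkgetin library, from 46.7, 52.4 and 60.2 CPM to 128, 108 and 170 CPM (log2 fold change 1.34, SE 0.18, adjusted p = 0.011, edgeR). Ifitm1, Ifitm2 and Socs3, an inhibitor of cytokine signalling, fell in dendritic-like cells with the block (background 3.77%), beside the same difference in make-up. The block also called Ifitm2 in B cell-like cells (background 1.75%), at 32.9, 40.1 and 18.1 CPM with vehicle and 82.9, 207 and 21.4 CPM with ginkgetin, so the groups overlapped (log2 fold change 1.42, adjusted p = 0.036, edgeR). With the block, too, Socs3 fell in T cell-like cells (background 0.749%, log2 fold change -1.24, adjusted p = 0.029, edgeR) and Mnda, listed at 0 in both replicate 3 libraries, in macrophage-like cells (background 16%).

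Among the ligand genes, Ifng, the gene of interferon gamma, was seen in T cell-like cells, at 143, 184 and 198 CPM with vehicle and 136, 45.6 and 100 CPM with ginkgetin on library totals. In NK cell-like cells it stood at 92.9, 146 and 1072 CPM with vehicle and 155, 70 and 285 CPM with ginkgetin, so the groups overlapped there. The 1072 CPM came from 14 cells. NK cell-like cells of replicates 1 and 2 were all in cluster 23, led by Ncr1. In replicate 3, 85.7% with vehicle and 98.3% with ginkgetin were in cluster 36, led by Prf1 and Klra4. Cluster 24, also led by Ncr1, held 169 cells of vehicle replicate 3 and 231 of ginkgetin replicate 3 and stayed unnamed. Cluster 6, led by Ccl5, Cd8b1 and Gzmk, made up 47.8 and 47.4% of T cell-like cells with vehicle and 29.1 and 6.61% with ginkgetin in replicates 1 and 2, and under 1% in replicate 3. There cluster 15, with Gzmk and Cd8b1 among its leading genes, made up 59.6% with vehicle and 32.6% with ginkgetin. The part of the make-up of both classes in the Ifng levels was not tested. Ifnb1, the gene of interferon beta, had 10 UMIs in macrophage-like, 9 in plasmacytoid dendritic-like and 3 in monocyte-like cells and 0 in endothelial-like cells, and all of these UMIs came from vehicle replicate 3.

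Over whole libraries, with all kept cells of a library added up, 17 Ifit/Oas/Isg15 type genes and 1 Gbp/Irg type gene were lower in every ginkgetin library than in any vehicle library, against 10.6% of 13824 genes. Gbp4 and Iigp1 were higher in every ginkgetin library, against 31.7% of those genes. Irf7 stood at 162 CPM ± 19.1 with vehicle and 49.2 CPM ± 20.6 with ginkgetin (SD, n = 3). Fewer cells of a class and less RNA per cell cannot be told apart in such sums, and macrophage-like cells, where Irf7 was highest, numbered 701 to 1257 in the vehicle libraries and 103 to 550 in the ginkgetin libraries.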

How the data were processed

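The deposited tables hold raw counts of UMIs per gene and cell barcode, made by the authors with no normalization. The aligner is not given in the sources used here, and the submitters' processing notes name the builds GRCm38 and mm10. One protocol in the labels names kits for total RNA, whereas the methods and the barcodes fit single cells. Cells with 250 to 5000 genes detected and under 5% mitochondrial UMIs were kept. The methods state this range for UMIs, which was an alternative and kept 16821 cells. Cells of all libraries were clustered together in scanpy 1.11.5 (2000 variable genes, 30 components, 15 neighbours, Leiden resolution 1, seed 1), without integration, with the interferon genes and the 3199 rows counted in 1 barcode set left out of the variable genes. A named cluster needed 3 detected markers. Scrublet called under 0.5% of cells in each library and was not relied on, so doublets stayed in. A fit without the top 5% of each library by doublet score was an alternative.

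Counts were summed per class for libraries with 10 or more cells, filtered with filterByExpr and tested in edgeR 4.0.16 (R 4.3.3, TMM, quasi-likelihood) with the group as the only term. DESeq2 1.42.0 was an alternative. The fit was tested on simulated data with known changes. Same-numbered libraries deviated together in the 11 classes compared, hepatocyte-like cells being without a cell in ginkgetin replicate 1 (correlations across genes 0.454 to 0.926), and for replicates 1 and 2 crossed pairs also correlated (0.176 to 0.721), whereas replicate 3 has its own barcode set. The crossed pairs passed the rule used (every correlation over 0.1) too, so it cannot show that replicates 1 and 2 are pairs. In macrophage-like cells the crossed pairs reached 0.481 and 0.497, against 0.462 for replicate 1 and 0.546 for replicate 2. The blocked fit takes the numbers as pairs and is printed where it changes a call. The comparison between classes and the fits with library totals and with the rows shared by both sets were chosen after seeing the data.

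Genes with full statistics are those called in a class by the unblocked fit and Isg15, Ifit3, Irf7, Bst2, Gbp2 and Igtp, to which genes called under the block were added. The genes and lists were chosen with earlier results of these data known. Promoter letters come from RefSeq.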

Additional observations from a re-analysis of the deposited data

Results flagged for a closer look

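The group effect (log2 fold change, ginkgetin against vehicle) differed between macrophage-like and endothelial-like cells for 4 genes by a test of the difference itself (edgeR with a term for each library, adjusted over 9186 genes). These are 4 of 42 genes, about the 8.93% called over all genes. The difference, macrophage-like minus endothelial-like, was 1.704 for Gbp7 (SE 0.27, adjusted p = 0.0016), 2.26 for Oas2 (SE 0.42, adjusted p = 0.0042), 1.596 for Gbp4 (SE 0.36, adjusted p = 0.012) and 1.03 for Irf7 (SE 0.31, adjusted p = 0.046). Beside these values, the summed endothelial-like markers in macrophage-like cells were 193 to 212 CPM in the vehicle and 901 to 1677 CPM in the ginkgetin libraries, and their part in the difference was not tested. Oas2 rests on few counts in endothelial-like cells.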

How the results depend on the processing

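The number of the 44 genes called in macrophage-like cells was 6. It was 12 with replicates 1 and 2 alone (11.7% of all genes called), 3 with the UMI filter (2.37%), 3 with library totals (16.8%), and 0 to 10 with one library left out (0 to 12.2%). In endothelial-like cells it was 0, and became 9 with the replicate block (4.4%), 9 with the barcode-set block (4.57%), 8 with replicates 1 and 2 alone (3.51%) and 6 with DESeq2 (2.85%). In the other classes it was 0, and became 7 with the replicate block (1.79%), 6 with the barcode-set block (1.7%), 1 with replicates 1 and 2 alone (0.227%) and 3 with DESeq2 (0.941%). The fits without a library also have fewer samples, and the part of this in the changed counts was not tested. Irf7 in macrophage-like cells turned from -0.46 to 0.012 with library totals. Igtp in endothelial-like cells, at -0.18, ran from -0.39 to 0.087 with one library left out, the latter without ginkgetin replicate 2. Irf7 in macrophage-like cells ran from -0.72 to -0.28, and in endothelial-like cells Bst2 from -0.72 to -0.25 and Gbp2 from -0.57 to -0.20, without a call. The difference in the thinned share of macrophage-like cells, 3.94 percentage points (ginkgetin minus vehicle), turned to -4.61 without thinning, -1.51 at 500 UMIs and -1.15 with the UMI filter. The cause was not tested. Of the single-gene log2 fold changes under all alternatives, 228 kept their direction and their side of the threshold, 12 came to pass it, 30 no longer passed it and 2 turned sign. The replicate block changed no other call of the genes given full statistics. The fit of replicate 3 alone has 1 library per group and no test: log2 ratios there in macrophage-like cells were -1.63 for Isg15 and 2.84 for Gbp4. The ginkgetin macrophage-like sums, at 336336 to 2085940 UMIs against 5820007 to 18258723, limit the precision of genes at low CPM. In ginkgetin replicate 1, the smallest sum, this includes the called genes Isg15, Oas1a, Gbp4, Ifit3 and Ifi35, at 32.1 to 40.8 CPM.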
